A study of Mus musculus with 28 samples.

Results

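The early response of skin stem cells to a wound was read from epidermal cells of mice that had received only a control cream and so had no earlier imiquimod inflammation. The libraries were chosen by their titles: 2 RNA-seq libraries of cells taken 6 h after wounding in control skin, set against 2 libraries of control skin at day 30 for which no wound is named. These 4 belong to the 16 RNA-seq libraries and 28 samples of the series. Every gene that passed the filter on low counts was examined, 17299 of 30802 with a read. Per the labels all of these mice were female C57BL/6 of postnatal day 60 that received vanicream, a moisturiser, for 6 days. In the 6 h group full thickness wounds were made in dorsal skin at 30 days and taken 6 h later, while the day 30 group was harvested at 30 days. Adult skin epithelial cells were sorted as positive for integrins α6 and β1 and for Sca1 and negative for CD34, the surface profile of interfollicular epidermal stem cells. No transgene or mutation is named. Nothing in the labels says whether the libraries of a group came from separate mice or from pooled mice, so p-values measure only the spread between these samples, which may be technical. For comparison there were 2 libraries of 12 h wounds in control skin, and 2 libraries each of 6 h wounds and of day 30 skin from mice given topical imiquimod for 6 days.

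Interfollicular epidermal stem cells sit on the basement membrane, hold it with integrins and express the keratins Krt5 and Krt14. Cells that leave this layer switch to Krt1 and Krt10 and build the barrier. At a wound edge keratinocytes are known to make the stress keratins Krt6, Krt16 and Krt17, to change their integrins and proteases so that they can crawl under the scab, and to release chemokines that call in neutrophils. A short burst of immediate early transcription factors soon after injury is a textbook feature of damaged epithelium.

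Library totals were 56925397 and 27655665 counts at 6 h, and 23928506 and 36218864 counts at day 30. Levels below are counts scaled to library size (CPM, with TMM factors). Log2 CPM of the libraries of a group correlated across genes at 0.981 at 6 h and 0.967 at day 30, and genes are not independent replicates. Mitochondrially encoded transcripts took 1.40% and 1.07% of counts at 6 h, against 2.09% and 1.42% at day 30. Day 30 library 1 went against its label of female: it held 0 Xist reads and 7830 reads of Y-linked genes. In the other 3 libraries Xist had 16512 reads or more, and Y-linked genes had 2 or fewer. Itga6, a gene of the sort, was at 1940 and 1740 CPM at 6 h and 2310 and 1220 CPM at day 30. Krt14 was at 16300 and 14500 CPM at 6 h and 29900 and 15800 CPM at day 30, and Cd34 was at 2.08 CPM or less in all 4 libraries. These markers stood as the sort would have them in both groups. Itgb1 was at 943 and 940 CPM at 6 h and 592 and 264 CPM at day 30 (log2 change 1.14 ± 0.37, SE). Ly6a, which encodes Sca1, was at 687 and 608 CPM at 6 h and 326 and 200 CPM at day 30 (1.30 ± 0.30). Both sort genes were called higher at 6 h, though Itgb1 missed the threshold without day 30 library 2 (adjusted p 0.19), 6 h library 1 (0.088) or 6 h library 2 (0.11).

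Wounded and unwounded cells differed across much of the transcriptome. By edgeR's quasi-likelihood test with Benjamini-Hochberg adjustment over all genes, 6003 of 17299 genes passed an adjusted p of 0.05, which is 34.7%. At 6 h 3119 were higher (18.0%) and 2884 lower (16.7%). Called changes of at least 1 on the log2 scale numbered 1623 upward (9.38%) and 1703 downward (9.84%). Changes of at least 2 made up 4.04% of genes upward and 3.27% downward, and those of at least 3 made up 2.37% upward, 410 genes, and 1.07% downward, 185 genes. The median log2 change of all genes was 0.01. Both 6 h libraries lay above both day 30 libraries for 33.9% of genes, and below both for 31.4%. Of the 6003 calls 2673 stood whichever of the 4 libraries was left out, 1552 higher and 1121 lower. Without day 30 library 1, the one with Y-linked reads, 2352 genes were higher and 2475 lower. Without 6 h library 2, 1885 were higher and 1281 lower.

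Among called genes past a mean of 2 log2 CPM whose groups do not overlap, the largest log2 change was that of Serpina3n, a secreted serine protease inhibitor of the acute phase type. It had 210 and 246 CPM in 6 h wounds, against 0.284 and 0.059 CPM at day 30, a log2 change of 10.56 ± 0.60 (SE) with an edgeR adjusted p of 4.58e-06. The gene lies on chromosome 12 at 104406646 to 104414334 (GRCm38). Sh2d5, an adaptor protein with an SH2 domain, had 221 and 260 CPM at 6 h and 1.09 CPM in each day 30 library. Procr, the protein C receptor and a surface marker of several stem cell types, had 110 and 247 CPM at 6 h and 2.46 and 2.12 CPM at day 30. The groups lay far apart for all 3 genes, and the calls held without any 1 of the 4 libraries. So did those of St3gal4, a sialyltransferase (35.0 and 37.4 CPM at 6 h, 0.520 and 1.15 CPM at day 30), and of Prss12, a secreted serine protease (37.1 and 75.9 CPM at 6 h, 0.615 and 2.04 CPM at day 30). Gsta4, a glutathione transferase that clears lipid aldehydes, was at 197 and 217 CPM at 6 h and 5.72 and 2.57 CPM at day 30 (5.67 ± 1.26). Its call ended without day 30 library 2 (adjusted p 0.059).

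**Figure D1:**
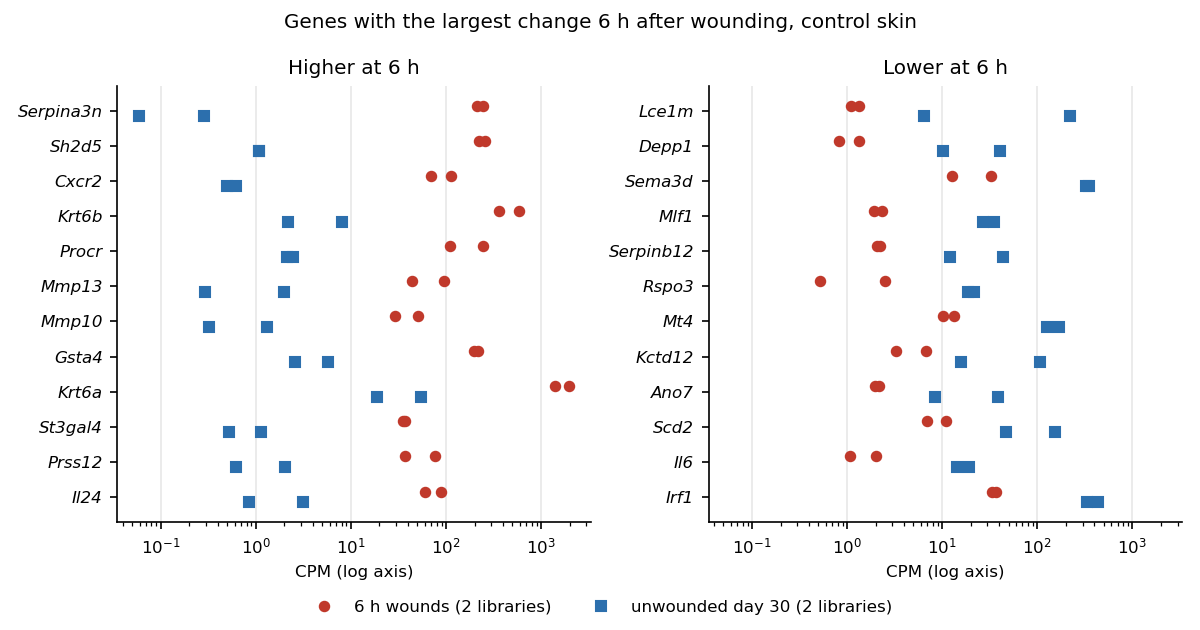
CPM per library on a log axis for the 12 genes with the largest log2 change in each direction, among called genes above a mean of 2 log2 CPM whose groups do not overlap; circles are the 2 libraries of 6 h wounds and squares the 2 libraries of unwounded day 30 skin. Serpina3n shows the widest gap among the rising genes, and among the falling genes Lce1m and Kctd12 have day 30 libraries that lie far apart.

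Matrix metalloproteinases, which cut collagens and other matrix proteins, and the plasminogen system had more members higher than lower. Of 24 tested members 12 were higher and 2 lower, beside 18.0% of all genes higher and 16.7% lower. The median log2 change was 1.38 against 0.01 for all genes. Summed over the list, levels were lower at 6 h, with 6230 and 7440 CPM against 14000 and 7900 CPM at day 30. The rises numbered 4 without day 30 library 2 and 6 without 6 h library 2. Mmp13, a collagenase, had 44.2 and 95.6 CPM at 6 h against 1.99 and 0.295 CPM at day 30 (log2 change 6.09 ± 1.32). Mmp10, a stromelysin, had 29.1 and 50.3 CPM at 6 h against 1.32 and 0.325 CPM at day 30 (5.70 ± 1.39). Either wound library stood far above day 30, but the day 30 libraries were uneven: without library 2 of day 30 the adjusted p was 0.053 for Mmp13 and 0.077 for Mmp10, and for Mmp10 it was 0.061 without 6 h library 2. Mmp1a, an interstitial collagenase, had 3.38 and 2.32 CPM at 6 h and 0 reads in both day 30 libraries, at least 24.7-fold higher with day 30 set at 3 counts per library. Mmp12, the macrophage elastase, had 3.53 and 8.84 CPM at 6 h and 0 and 0.148 CPM at day 30, and lost its call without day 30 library 1 (0.051). Plaur, the receptor that holds urokinase at the cell surface, had 22.0 and 33.8 CPM at 6 h and 2.51 and 0.620 CPM at day 30 (4.23 ± 0.94), with an adjusted p of 0.050 without day 30 library 2. Mmp9, the gelatinase, had 2.20 and 2.73 CPM at 6 h and 0.993 and 0.059 CPM at day 30 and did not pass. Mmp1a and Mmp1b are similar copies, and reads may be shared between them.

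Metalloproteinase genes are classic targets of AP-1, the dimer of Fos and Jun proteins, and their promoters are shown because the letters of its motif recur in them. RefSeq promoters (GRCm38.p6, 250 bases before to 50 after the start) were found for 11507 of the 17299 genes. The AP-1 motif TGANTCA, on either strand, was in 5.67% of them. It was in 4.61% of promoters of genes called higher and in 5.42% of those called lower. In the list of stress keratins and cornified envelope precursors it was in 9 of 17 promoters, 52.9%. There 2 of the 9 genes with it were higher, and 0 of the 8 without it. In the metalloproteinase and plasminogen list it was in 9 of 19 promoters, 47.4%. Of those 9 genes 7 were higher, and of the 10 without it 4 were higher and 1 lower. Those with it include Mmp1a, Mmp1b, Mmp3, Mmp10 and Mmp13, related genes close together on chromosome 9. In the keratin and envelope list all with it but Ivl are Sprr genes. Such related genes are not independent cases. Binding of AP-1 was not tested. The 160 bases before the start of 6 of the rising genes follow, chosen after their values were seen, 5′ to 3′ on the gene's strand with the motif in capitals:
Mmp13, chr9:7272354-7272513, plus strand: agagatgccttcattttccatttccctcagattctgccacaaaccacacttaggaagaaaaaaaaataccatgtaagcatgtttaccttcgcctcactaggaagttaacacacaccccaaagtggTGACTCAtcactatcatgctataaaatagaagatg
Mmp10, chr9:7502182-7502341, plus strand: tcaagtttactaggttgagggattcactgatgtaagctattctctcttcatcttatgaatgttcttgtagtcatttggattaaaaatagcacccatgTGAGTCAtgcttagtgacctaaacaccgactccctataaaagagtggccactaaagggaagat
Mmp3, chr9:7445662-7445821, plus strand: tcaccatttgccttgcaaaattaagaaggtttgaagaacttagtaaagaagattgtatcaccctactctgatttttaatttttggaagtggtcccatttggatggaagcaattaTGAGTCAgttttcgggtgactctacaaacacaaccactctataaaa
Mmp1a, chr9:7463981-7464140, plus strand: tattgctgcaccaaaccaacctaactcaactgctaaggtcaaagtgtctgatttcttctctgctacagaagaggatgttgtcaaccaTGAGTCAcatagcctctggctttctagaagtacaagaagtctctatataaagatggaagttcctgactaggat
Mmp1b, chr9:7388027-7388186, minus strand: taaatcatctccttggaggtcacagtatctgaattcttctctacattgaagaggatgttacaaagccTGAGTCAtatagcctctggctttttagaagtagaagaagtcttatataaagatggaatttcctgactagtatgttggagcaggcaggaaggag
Plaur, chr7:24462323-24462482, plus strand: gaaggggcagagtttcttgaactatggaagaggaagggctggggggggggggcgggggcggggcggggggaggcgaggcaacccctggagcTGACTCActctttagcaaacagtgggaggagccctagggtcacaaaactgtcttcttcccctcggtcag
The match lies 35 bases before the start in Mmp13, 63 in Mmp10, 46 in Mmp3, 73 in Mmp1a, 93 in Mmp1b and 69 in Plaur. Only the first listed promoter of a gene was used, and that of Plaur lies within the gene, which spans 24460937 to 24475970. Mmp3, the stromelysin that neighbours Mmp10 on chromosome 9, had 176 and 338 CPM at 6 h and 53.7 and 15.7 CPM at day 30.

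Wound-edge keratins were higher after wounding, though their calls leaned on single libraries. Krt6a, on chromosome 15 at 101689928 to 101694305, had 1410 and 1980 CPM at 6 h against 55.1 and 18.9 CPM at day 30 (log2 change 5.52 ± 1.43). Its near-copy Krt6b had 364 and 594 CPM at 6 h against 7.99 and 2.18 CPM at day 30 (6.59 ± 1.58). Krt17 had 1840 and 3240 CPM at 6 h against 487 and 1210 CPM at day 30 (1.59 ± 0.44). All 3 passed, and both wound libraries were above both day 30 libraries. Krt16, which pairs with Krt6, had 1220 and 2390 CPM at 6 h and 572 and 557 CPM at day 30, with an edgeR adjusted p of 0.137. Without day 30 library 2 the adjusted p was 0.097 for Krt6a and 0.075 for Krt6b. Without 6 h library 2 it was 0.063 for Krt6a, 0.051 for Krt6b and 0.13 for Krt17, and without day 30 library 1 it was 0.054 for Krt6a and 0.093 for Krt17. Of 22 stress keratins and cornified envelope precursors 5 were higher and 0 lower, against 18.0% of all genes higher, with a median log2 change of 1.85. The rises numbered 1 without 6 h library 2, 2 without day 30 library 1, 3 without day 30 library 2 and 7 without 6 h library 1. Reads of Krt6a and Krt6b, and of the Sprr2 copies in this list, may be split between copies.

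Of 28 integrin and provisional matrix genes 9 were higher and 4 lower, with counts that leaned on single libraries: 11 higher and 1 lower without day 30 library 1, 2 and 4 without day 30 library 2, and 3 and 2 without 6 h library 2. Of all genes 18.0% were higher and 16.7% lower. Itga5, the α subunit of the fibronectin receptor, had 31.9 and 38.4 CPM at 6 h against 10.4 and 4.43 CPM at day 30 (log2 change 2.27 ± 0.44). Itgb5, a subunit of a vitronectin receptor, had 27.6 and 18.1 CPM at 6 h against 77.9 and 140 CPM at day 30 (-2.25 ± 0.29). These integrins moved in opposite directions, and both calls held without any 1 library. Has2, which synthesises hyaluronan, had 16.2 and 18.5 CPM at 6 h and 0.946 and 1.24 CPM at day 30 (3.97 ± 0.59). Has3, another such synthase, had 489 and 738 CPM at 6 h and 217 and 77.3 CPM at day 30, a call lost without 6 h library 2 (adjusted p 0.12) or day 30 library 2 (0.094). Gjb2, a connexin of gap junctions, had 56.8 and 139 CPM at 6 h and 1.70 and 3.98 CPM at day 30 (5.06 ± 0.94). Hyaluronan synthases and this connexin were thus higher in both wound libraries. Thbs1, thrombospondin, had 1370 and 1360 CPM at 6 h against 7830 and 3220 CPM at day 30 (-2.02 ± 0.66), and lost its call without day 30 library 1 (0.24) or either 6 h library (0.14 and 0.18). Sema3d, a semaphorin guidance molecule, had 32.3 and 12.7 CPM at 6 h and 348 and 327 CPM at day 30 (-3.90 ± 0.74).

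Signals that attract neutrophils were higher in wounded cells. Of 7 neutrophil chemokines and colony-stimulating factors 5 were called higher and 0 lower, beside 18.0% of all genes higher and 16.7% lower. The median log2 change was 4.5, or 1.60 with the 2 members at 0 reads at day 30 set at their bound. Cxcl1 had 41.0 and 39.0 CPM at 6 h against 18.4 and 8.14 CPM at day 30. Cxcl2 had 1.78 and 5.24 CPM at 6 h against 0.236 and 0.0885 CPM at day 30. Csf3, the granulocyte growth factor, had 0.812 and 1.80 CPM at 6 h and 0 reads in both day 30 libraries, at least 11.3-fold higher at 3 counts per library. Both wound libraries were above both day 30 libraries each time, yet Cxcl2 and Csf3 were low throughout. Cxcl1 lost its call without day 30 library 2 (adjusted p 0.15) or either 6 h library (0.090 and 0.098), and Cxcl2 without 6 h library 2 (0.13), day 30 library 1 (0.074) or day 30 library 2 (0.14). The list's rises numbered 2 without 6 h library 2 and 3 without either day 30 library. Ccl20, which draws CCR6-bearing immune cells, had 80.9 and 136 CPM at 6 h and 6.38 and 20.5 CPM at day 30 (2.99 ± 0.53). Cx3cl1, the membrane-bound chemokine fractalkine, fell to 13.8 and 14.9 CPM at 6 h, against 37.1 CPM in each day 30 library (-1.37 ± 0.25).

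Cxcr2, the receptor for those Cxcl ligands, was among the largest rises in the sorted cells. On chromosome 1 at 74153994 to 74161246, it had 70.5 and 114 CPM at 6 h against 0.615 and 0.502 CPM at day 30, a log2 change of 7.38 ± 1.00 with an edgeR adjusted p of 0.000504. The call held without any 1 library. Cxcr2 is best known on neutrophils, and other neutrophil genes are given beside it. Of 5 tested neutrophil markers 1 was higher, Cxcr2 itself, and 0 lower, beside 18.0% of all genes higher and 16.7% lower. The list summed to 86.1 and 171 CPM at 6 h and 12.9 and 3.78 CPM at day 30. Ly6g was at 0.0338 and 0.112 CPM at 6 h and 0 at day 30, Csf3r was at 0.0169 and 0 CPM at 6 h and 0 at day 30, and Elane and Cd177 were at or near 0 in all 4 libraries. S100a8, shared by neutrophils and stressed keratinocytes, was at 6.41 and 24.3 CPM at 6 h and 5.06 and 1.15 CPM at day 30 and was not called. Which cells the Cxcr2 reads came from was not tested.

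In the IL-6 and IL-20 family 6 of 16 members were higher and 3 lower, and Il6 itself fell. The shares of all genes were 18.0% higher and 16.7% lower. Il24, an IL-20 type cytokine made by stressed epithelium, had 59.7 and 88.5 CPM at 6 h against 3.17 and 0.856 CPM at day 30 (log2 change 5.28 ± 1.07). Il6 had 1.07 and 2.02 CPM at 6 h against 14.5 and 19.2 CPM at day 30 (-3.48 ± 0.73). Both calls held without any 1 library, with the pair moving in opposite directions. Il19 had 1.35 and 2.77 CPM at 6 h and 0 and 0.0885 CPM at day 30. In the IL-1 and IL-36 family 2 of 18 were higher and 8 lower, with a median of -0.95, and the falls numbered 4 without 6 h library 1 or day 30 library 2. Il1f5, the antagonist of the IL-36 receptor, had 7.56 and 1.99 CPM at 6 h and 27.1 and 79.2 CPM at day 30 (-3.44 ± 0.69). Il18r1, a chain of the IL-18 receptor, had 50.5 and 57.9 CPM at 6 h, against 9.46 and 8.41 CPM at day 30 (2.60 ± 0.34). Neither pair of groups overlapped. Il1b had 1.57 and 1.42 CPM at 6 h and 0.331 and 1.21 CPM at day 30, with an adjusted p of 0.239.

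Regulators downstream of cytokine receptors did not move as blocks. Of 13 STAT3 and SOCS genes 3 were higher and 5 lower, beside 18.0% of all genes higher and 16.7% lower. Of 19 NF-kB subunits, inhibitors and targets 2 were higher and 5 lower. The STAT3 and SOCS falls numbered 3 without either 6 h library, and the NF-kB falls 3 without either 6 h library and 2 without day 30 library 2. Stat3, the transcription factor of IL-6 type receptors, had 814 and 1160 CPM at 6 h against 499 and 475 CPM at day 30 (log2 change 1.02 ± 0.19). Bcl3, an NF-kB cofactor, had 176 and 342 CPM at 6 h against 67.6 and 54.3 CPM at day 30 (2.09 ± 0.40). The feedback inhibitors Cish, Socs3 and Tnfaip3 went the other way. Cish had 43.5 and 60.5 CPM at 6 h against 345 and 451 CPM at day 30 (-2.94 ± 0.24). Socs3 had 548 and 831 CPM at 6 h against 2020 and 967 CPM at day 30 (-1.11 ± 0.39), and lost its call without day 30 library 1 (adjusted p 0.38) or either 6 h library (0.22 and 0.066). Tnfaip3, an NF-kB inhibitor, had 226 and 275 CPM at 6 h against 1260 and 2120 CPM at day 30 (-2.76 ± 0.47). Irf1, an interferon-responsive transcription factor, had 33.7 and 36.7 CPM at 6 h against 334 and 436 CPM at day 30 (-3.45 ± 0.22, edgeR adjusted p 4.48e-06).

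The promoters of 4 of these genes are given because they hold the letters of a motif of these pathways: Cxcl1 and Il6, which moved in opposite directions, share those of NF-kB, and Irf1 and Socs3, both lower, share those of STAT factors. The NF-kB motif was searched on both strands as GGGA and TTCC with any 2 bases between. It was in 1.65% of promoters of genes called higher, 1.27% of those called lower and 1.52% of all. The STAT motif TTCNNNGAA was in 7.66% of promoters of genes called higher, 6.50% of those called lower and 6.89% of all. In the 160 bases before the start, with the match in capitals, the NF-kB letters lie 71 bases upstream in Cxcl1, where 2 overlapping matches form 1 run, and 44 bases upstream in Il6. The STAT letters lie 90 bases upstream in Irf1 and 154 bases upstream in Socs3:
Cxcl1, chr5:90891085-90891244, plus strand: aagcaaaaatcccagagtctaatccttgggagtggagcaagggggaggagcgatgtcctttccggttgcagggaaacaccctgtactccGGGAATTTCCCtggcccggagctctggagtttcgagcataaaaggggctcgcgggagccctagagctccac
Il6, chr5:30012954-30013113, plus strand: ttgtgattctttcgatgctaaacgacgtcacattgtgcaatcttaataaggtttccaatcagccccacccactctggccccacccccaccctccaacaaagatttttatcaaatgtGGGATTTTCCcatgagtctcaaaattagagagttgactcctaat
Irf1, chr11:53769854-53770013, plus strand: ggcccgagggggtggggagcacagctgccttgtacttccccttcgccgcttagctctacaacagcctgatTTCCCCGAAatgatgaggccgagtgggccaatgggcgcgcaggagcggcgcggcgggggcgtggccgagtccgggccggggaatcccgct
Socs3, chr11:117969367-117969526, minus strand: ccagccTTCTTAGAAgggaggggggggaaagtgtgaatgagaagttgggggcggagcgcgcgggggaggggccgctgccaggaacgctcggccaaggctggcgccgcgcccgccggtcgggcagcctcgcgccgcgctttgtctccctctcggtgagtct
The promoter used for Socs3 lies within the gene, which spans 117966079 to 117970336. With the same NF-kB letters Cxcl1 was higher at 6 h and Il6 lower. A match in letters does not show that a factor was bound.

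Immediate early genes were lower, not higher, 6 h after the wound. Of 28 immediate early and AP-1 genes 22 fell and 0 rose, with a median log2 change of -1.46, whereas 16.7% of all genes fell. The falls numbered 12 to 17 with 1 library left out. Summed over the list, levels were 13100 and 19100 CPM at 6 h and 47300 and 45100 CPM at day 30. Fos had 1840 and 2610 CPM at 6 h against 7010 and 5550 CPM at day 30 (-1.5 ± 0.32). Atf3, a stress-induced partner of AP-1 proteins, had 1100 and 1430 CPM at 6 h against 8790 and 6280 CPM at day 30 (-2.58 ± 0.51). Btg2, an antiproliferative early gene, had 216 and 333 CPM at 6 h against 2140 and 2770 CPM at day 30 (-3.16 ± 0.42). The groups lay well apart for each of these, and the calls held without any 1 library. Fosl1, the Fra-1 subunit known from migrating keratinocytes, had 185 and 348 CPM at 6 h and 860 and 761 CPM at day 30 (-1.61 ± 0.52), and its call ended without any 1 of the 4 libraries (adjusted p 0.061 to 0.20). Other lists had members in both directions, beside 18.0% of all genes higher and 16.7% lower. Heat shock genes counted 5 higher and 5 lower of 19, and Notch genes 2 and 3 of 15. BMP and Id genes counted 3 and 5 of 17. Dnajb1 and Hspb8, chaperone genes, changed by -2.26 ± 0.29 and -2.40 ± 0.19. Hes1, a Notch target repressor, had 48.1 and 58.5 CPM at 6 h against 645 and 518 CPM at day 30 (-3.45 ± 0.24). Id3, a BMP target, had 27.6 and 41.8 CPM at 6 h against 367 and 282 CPM at day 30 (-3.23 ± 0.30). Rises in the heat shock and Notch lists included the chaperone gene Hspd1 (1.54 ± 0.20) and the Notch pathway genes Rfng (2.51 ± 0.20) and Dll1 (1.42 ± 0.28).

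**Figure D2:**
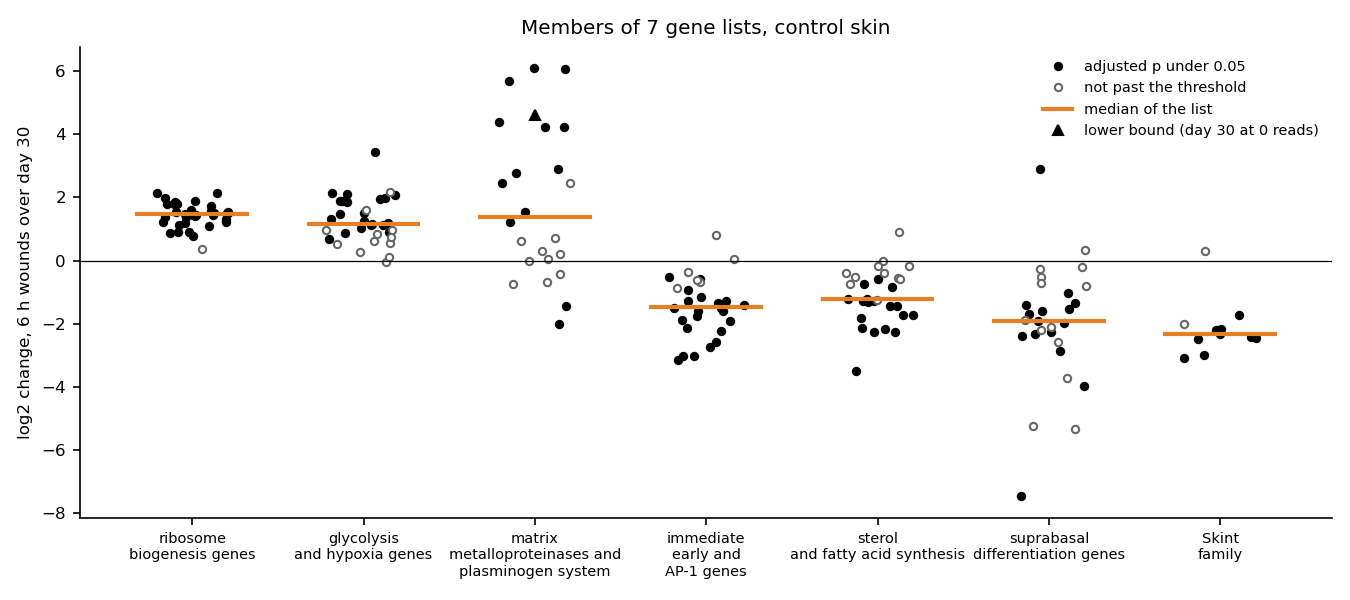
Log2 change of 6 h wounds over unwounded day 30 skin for each tested member of 7 gene lists; filled points passed an adjusted p of 0.05, open points did not, orange bars are list medians as fitted and the triangle is the lower bound for Mmp1a. Ribosome biogenesis members lie above 0, and immediate early, sterol, suprabasal and Skint members mostly lie below it.

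Ribosome biogenesis, the nucleolar machinery that makes and modifies ribosomal RNA, was higher in nearly all of its members. Of 34 genes 33 were higher and 0 lower, with a median log2 change of 1.46 and called rises between 0.77 and 2.14. The shares of all genes were 18.0% higher and 16.7% lower. With 1 library left out, 30 to 33 members were called higher. Nop2, which methylates ribosomal RNA, had 208 and 277 CPM at 6 h against 61.1 and 49.5 CPM at day 30 (2.13 ± 0.20, edgeR adjusted p 2.2e-05). Rrs1, an assembly factor of the large subunit, had 121 and 170 CPM at 6 h against 37.9 and 28.5 CPM at day 30 (2.14 ± 0.19). Dkc1, the pseudouridine synthase dyskerin, had 220 and 229 CPM at 6 h against 61.3 and 52.4 CPM at day 30 (1.99 ± 0.20). The libraries of the groups were well separated for all 3. Ncl, nucleolin, had 2130 and 2680 CPM at 6 h against 1110 and 669 CPM at day 30 (1.44 ± 0.26). Of 35 cytosolic ribosomal protein genes 5 were higher and 0 lower, with a median of -0.13, and 3 were higher without day 30 library 2. Myc, the transcription factor best known to drive ribosome biogenesis, had 250 and 378 CPM at 6 h against 1020 and 778 CPM at day 30 (-1.51 ± 0.25). It fell while the genes of the list rose. The E-box CACGTG, the motif that Myc binds, was in 12.2% of promoters of genes called higher, 8.90% of those called lower and 9.75% of all, and in 5 of 29 promoters of the list. Nop2 is shown as one of the 5, with the E-box in capitals 60 bases before the start:
Nop2, chr6:125131723-125131882, plus strand: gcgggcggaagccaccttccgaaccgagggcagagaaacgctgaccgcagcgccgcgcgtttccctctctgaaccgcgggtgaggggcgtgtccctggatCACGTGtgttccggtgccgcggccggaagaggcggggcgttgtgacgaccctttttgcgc

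Glycolysis and hypoxia genes rose in number. Of 33 members 21 were higher and 0 lower, with a median log2 change of 1.14, beside 18.0% of all genes higher and 16.7% lower. The rises numbered 5 without 6 h library 2 and 8 without day 30 library 2. Car9, a carbonic anhydrase and target of hypoxia-inducible factor, had 45.3 and 78.4 CPM at 6 h against 5.44 and 5.90 CPM at day 30 (3.44 ± 0.70). Vegfa, which stimulates vessel growth, had 244 and 452 CPM at 6 h against 103 and 53.7 CPM at day 30 (2.15 ± 0.49), with an adjusted p of 0.064 without 6 h library 2. Slc2a3, a glucose transporter, had 6.31 and 5.69 CPM at 6 h against 1.56 and 1.30 CPM at day 30 (2.08 ± 0.37). Wound library 2 was the higher for Car9 and Vegfa, but not for Slc2a3. Respiratory chain subunits counted 6 higher and 1 lower of 32, with a median of 0.05 and rises near the share of all genes. They counted 2 and 5 without day 30 library 2, and 2 and 0 without either 6 h library.

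Stress pathways gave mixed counts, beside 18.0% of all genes higher and 16.7% lower. Of 30 unfolded protein and amino acid stress genes 9 were higher and 0 lower. Slc7a11, the cystine transporter, had 17.5 and 17.3 CPM at 6 h and 0.851 and 0.708 CPM at day 30 (log2 change 4.49 ± 0.56). Atf5, an amino acid response factor, had 118 and 174 CPM at 6 h and 32.9 and 40.9 CPM at day 30 (1.99 ± 0.23). Both held their calls without any 1 library. NRF2 targets counted 8 higher and 6 lower of 23, and heat shock genes 5 and 5 of 19. The NRF2 falls numbered 2 without either 6 h library and 3 without day 30 library 1. The zinc-binding metallothionein Mt2 had 3910 and 5140 CPM at 6 h against 2880 and 1280 CPM at day 30 (1.12 ± 0.35), a call lost without day 30 library 2 (adjusted p 0.15) or 6 h library 2 (0.14). Mt4, a metallothionein of stratified epithelium, had 13.4 and 10.1 CPM at 6 h against 126 and 169 CPM at day 30 (-3.64 ± 0.52). The similar copies Mt1 and Mt2 may share reads.

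Sterol and fatty acid synthesis genes were low at 6 h, where 16.7% of all genes were lower and 18.0% higher. Of 29 genes 18 were lower than at day 30 and 0 higher, with a median log2 change of -1.22, and 13 to 22 were lower with 1 library left out. Cyp51, the lanosterol demethylase, had 52.4 and 71.6 CPM at 6 h against 178 and 263 CPM at day 30 (-1.83 ± 0.20). Scd2, a fatty acid desaturase, had 7.00 and 11.0 CPM at 6 h against 46.6 and 154 CPM at day 30 (-3.50 ± 0.50). Insig1, a sterol sensor of the endoplasmic reticulum, had 10.9 and 23.1 CPM at 6 h against 74.0 and 78.7 CPM at day 30 (-2.18 ± 0.32). None of these 3 pairs of groups overlapped, and the calls held without any 1 library. The 12 h wounds, set against the same 6 h libraries, were higher in 16 of the 29 genes and lower in 0, with a median of 1.43, where 0.486% of all genes were higher. Cyp51 averaged 289 ± 29.8 CPM at 12 h (SD, n = 2), a log2 change from 6 h of 2.22 with an edgeR adjusted p of 0.000295. Acat2, an acetyl-CoA acetyltransferase, averaged 46.0 ± 3.74 CPM at 12 h (SD, n = 2), with 9.88 and 7.45 CPM at 6 h (2.40, edgeR adjusted p 0.000295). These 2 calls held without any 1 of the 4 wound libraries. Those of Scd2, Fdps and Mvd were lost whichever was left out (adjusted p 0.084 to 0.33), and 4 to 7 members were then called higher at 12 h.

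**Figure D3:**
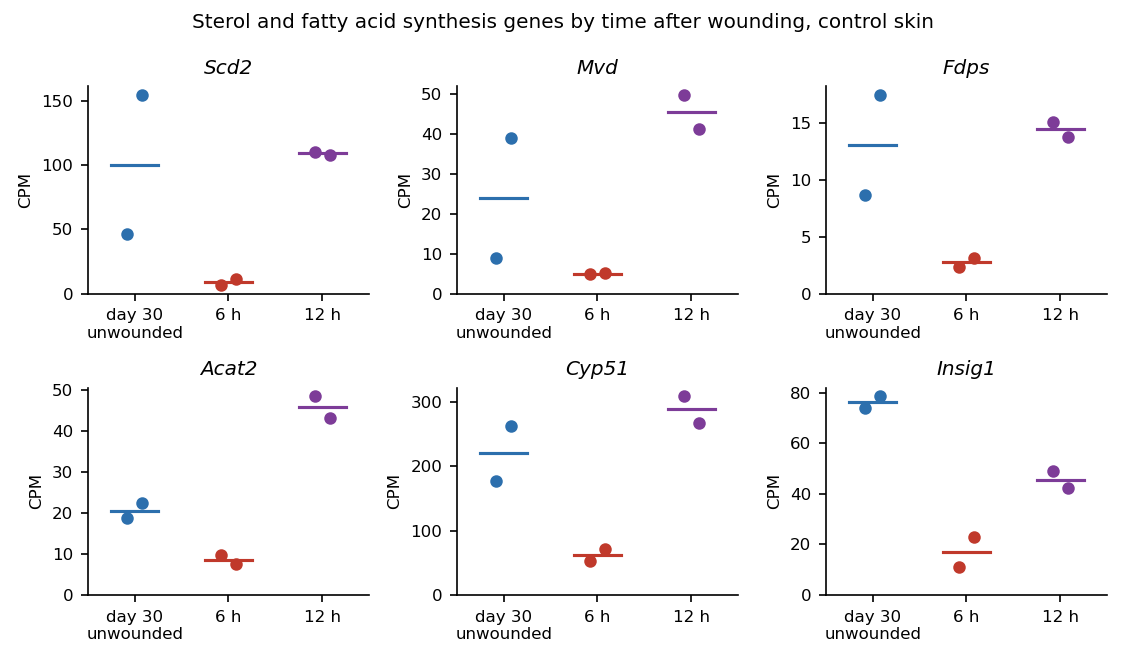
CPM of 6 sterol and fatty acid synthesis genes in unwounded day 30 control skin and at 6 h and 12 h after wounding; points are libraries, 2 per group, and bars their means. Each gene shown has both of its 6 h libraries below all libraries of the other groups.

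Differentiation genes were lower in the wound libraries, with large differences between the day 30 libraries. Of 28 suprabasal genes 14 were lower and 1 higher, with a median log2 change of -1.90, beside 16.7% of all genes lower and 18.0% higher. The falls numbered 20 without day 30 library 1, 6 without day 30 library 2, 6 without 6 h library 1 and 5 without 6 h library 2. Krt10, the main keratin of spinous cells, had 2910 and 2660 CPM at 6 h against 9030 and 17800 CPM at day 30 (-2.27 ± 0.53), with an adjusted p of 0.058 without 6 h library 2. Its partner Krt1 had 2530 and 3390 CPM at 6 h against 7380 and 9750 CPM at day 30 (-1.53 ± 0.40), with 0.075 without 6 h library 1 and 0.058 without day 30 library 2. For both keratins the groups did not overlap. Flg2, a filaggrin-like barrier protein, had 0.660 and 0.225 CPM at 6 h and 3.83 and 171 CPM at day 30. Lce1m, a late envelope protein, had 1.35 and 1.09 CPM at 6 h and 6.43 and 224 CPM at day 30. Krt77 had 1730 and 1220 CPM at 6 h and 2150 and 13500 CPM at day 30. Day 30 library 2 was by far the higher in all 3, and without it their adjusted p was 0.33, 0.36 and 0.46; they also missed the threshold without 6 h library 1 (0.16, 0.20 and 0.082) or 6 h library 2 (0.21, 0.23 and 0.17). In a bulk sample fewer differentiating cells and less of their RNA per cell cannot be told apart. The single rise was Aqp3, a water and glycerol channel, with 2600 and 4640 CPM at 6 h and 740 and 231 CPM at day 30 (2.90 ± 0.77), a call lost without day 30 library 2 (0.081) or 6 h library 2 (0.091).

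The basal keratins Krt5 and Krt14 were not called, while Krt15, Lgr6 and Rspo3 were lower. Krt5 had 17900 and 15000 CPM at 6 h and 33500 and 19400 CPM at day 30, with an edgeR adjusted p of 0.127. Krt15, a keratin of quiescent basal and follicle stem cells, had 2360 and 988 CPM at 6 h against 7840 and 5100 CPM at day 30 (log2 change -1.95 ± 0.42). Lgr6, a stem cell marker and R-spondin receptor, had 93.0 and 61.8 CPM at 6 h against 306 and 246 CPM at day 30 (-1.83 ± 0.32). Rspo3, a ligand of that receptor family, had 2.5 and 0.524 CPM at 6 h and 18.5 and 21.9 CPM at day 30 (-3.66 ± 0.68). The last 3 calls held without any 1 library. Over 22 basal and stem cell genes 4 were higher and 4 lower, with a median of 0.02. These shares were close to those of all genes, 18.0% higher and 16.7% lower. The rises numbered 1 without 6 h library 2 and 2 without 6 h library 1 or day 30 library 2, and the falls 2 without day 30 library 1. Of 11 Skint genes, immunoglobulin-like genes of which Skint1 is known to select epidermal γδ T cells in mice, 9 were lower and 0 higher, with a median of -2.32. Skint4 had 17.7 and 9.40 CPM at 6 h and 50.9 and 98.3 CPM at day 30 (-2.45 ± 0.36). The Skint falls numbered 5 without 6 h library 2 or day 30 library 2, and reads may be shared among these similar copies.

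Few S phase genes passed at 6 h, beside 18.0% of all genes higher and 16.7% lower. Of 30 S phase genes 1 was higher and 1 lower. Of 28 mitosis genes 0 were higher and 5 lower, with the falls near the share of all genes. Mki67, the proliferation marker, had 180 and 92.0 CPM at 6 h and 179 and 187 CPM at day 30, with an edgeR adjusted p of 0.236. The wound libraries differed from each other: 18 mitosis genes were lower without 6 h library 1, 1 without 6 h library 2 or day 30 library 1, and 2 without day 30 library 2. S phase genes counted 1 higher and 5 lower without 6 h library 1, and 4 and 0 without 6 h library 2. G1 regulators counted 4 higher and 6 lower of 23. E2f3, a factor of the G1 to S transition, had 17.8 and 18.4 CPM at 6 h against 6.67 and 7.91 CPM at day 30 (log2 change 1.31 ± 0.19).

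Growth factor pathways had members in both directions, and most of their counts were lower when 6 h library 2 was left out. Of all genes 18.0% were higher and 16.7% lower. Tgfa, a ligand of the EGF receptor, had 332 and 447 CPM at 6 h against 52.6 and 31.7 CPM at day 30 (log2 change 3.21 ± 0.65). Hbegf, a ligand of the same receptor, had 156 and 224 CPM at 6 h and 342 and 300 CPM at day 30, with an edgeR adjusted p of 0.203. EGFR ligands and receptors counted 3 higher and 2 lower of 15, and 1 and 0 without 6 h library 2. Smad3, a signal carrier of TGF-beta and activin, had 88.6 and 131 CPM at 6 h against 34.7 and 27.3 CPM at day 30 (1.82 ± 0.28), in a list with 6 higher and 5 lower of 24, and 5 and 1 without 6 h library 2. Inhba, the activin A subunit, was low, at 1.52 and 1.27 CPM at 6 h and 0.0473 and 0.118 CPM at day 30. For Tgfa, Smad3 and Inhba, all called, both wound libraries were above both day 30 libraries. Spred3, an inhibitor of Ras to MAP kinase signalling, had 15.5 and 16.5 CPM at 6 h and 0.804 and 0.561 CPM at day 30 (4.58 ± 0.39). Wif1, a secreted Wnt inhibitor, had 1.10 and 2.40 CPM at 6 h and 0 reads at day 30, at least 15.2-fold higher, in a Wnt list with 5 higher and 6 lower of 32. That list counted 2 and 3 without 6 h library 2, and 2 and 5 without day 30 library 1. Rfng, which modifies Notch receptors, had 147 and 224 CPM at 6 h and 31.1 and 34.1 CPM at day 30 (2.51 ± 0.20), in a list with 2 higher and 3 lower of 15, and 2 and 1 without 6 h library 2 or 2 and 5 without day 30 library 1.

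Host defence genes had 5 of 19 members higher and 0 lower. For this and the lists below, the shares of all genes were 18.0% higher and 16.7% lower. Their median log2 change of 1.68 becomes 0.61 with the 4 members that had a group at 0 reads set at their bound. Lcn2, an iron-binding antimicrobial protein, had 18.6 and 22.7 CPM at 6 h against 0.662 and 0.148 CPM at day 30 (5.84 ± 0.90). Slpi, a protease inhibitor with antimicrobial action, had 3.23 and 8.05 CPM at 6 h against 0.142 and 0.561 CPM at day 30 (3.85 ± 0.64). Both calls held without any 1 library. Type I interferon response genes counted 3 higher and 5 lower of 28, antigen presentation genes 0 and 5 of 23, and inflammasome genes 1 and 5 of 17. Aim2, a DNA sensor of the inflammasome, had 1.37 and 1.16 CPM at 6 h and 1.14 and 1.18 CPM at day 30, with an edgeR adjusted p of 0.788. Prostaglandin genes counted 6 higher and 3 lower of 18, and Pla2g4e, a phospholipase, had 66.1 and 108 CPM at 6 h and 1.84 and 6.20 CPM at day 30 (4.39 ± 0.77). Clock genes counted 1 higher and 7 lower of 19, and Bhlhe40, a clock repressor, had 237 and 349 CPM at 6 h and 1160 and 722 CPM at day 30 (-1.69 ± 0.29). Higher and lower members numbered 3 and 2 of 19 among MAP kinase feedback genes. They numbered 8 and 6 of 36 among actin and motility genes and 5 and 4 of 24 among junction genes, near the shares of all genes. Among BMP and Id genes they numbered 3 and 5 of 17, and among other chemokines 1 and 4 of 10. With 1 library left out the falls numbered 1 to 4 among interferon genes, 3 to 5 among antigen presentation genes, 4 to 7 among clock genes, 0 to 4 among junction genes and 1 to 3 among other chemokines, each lowest without 6 h library 2 (for other chemokines also without day 30 library 1). Inflammasome falls numbered 1 to 5, lowest without day 30 library 2. The MAP kinase feedback rises numbered 6 without day 30 library 1, and the BMP and Id falls 3 without day 30 library 1 or either 6 h library.

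**Figure D4:**
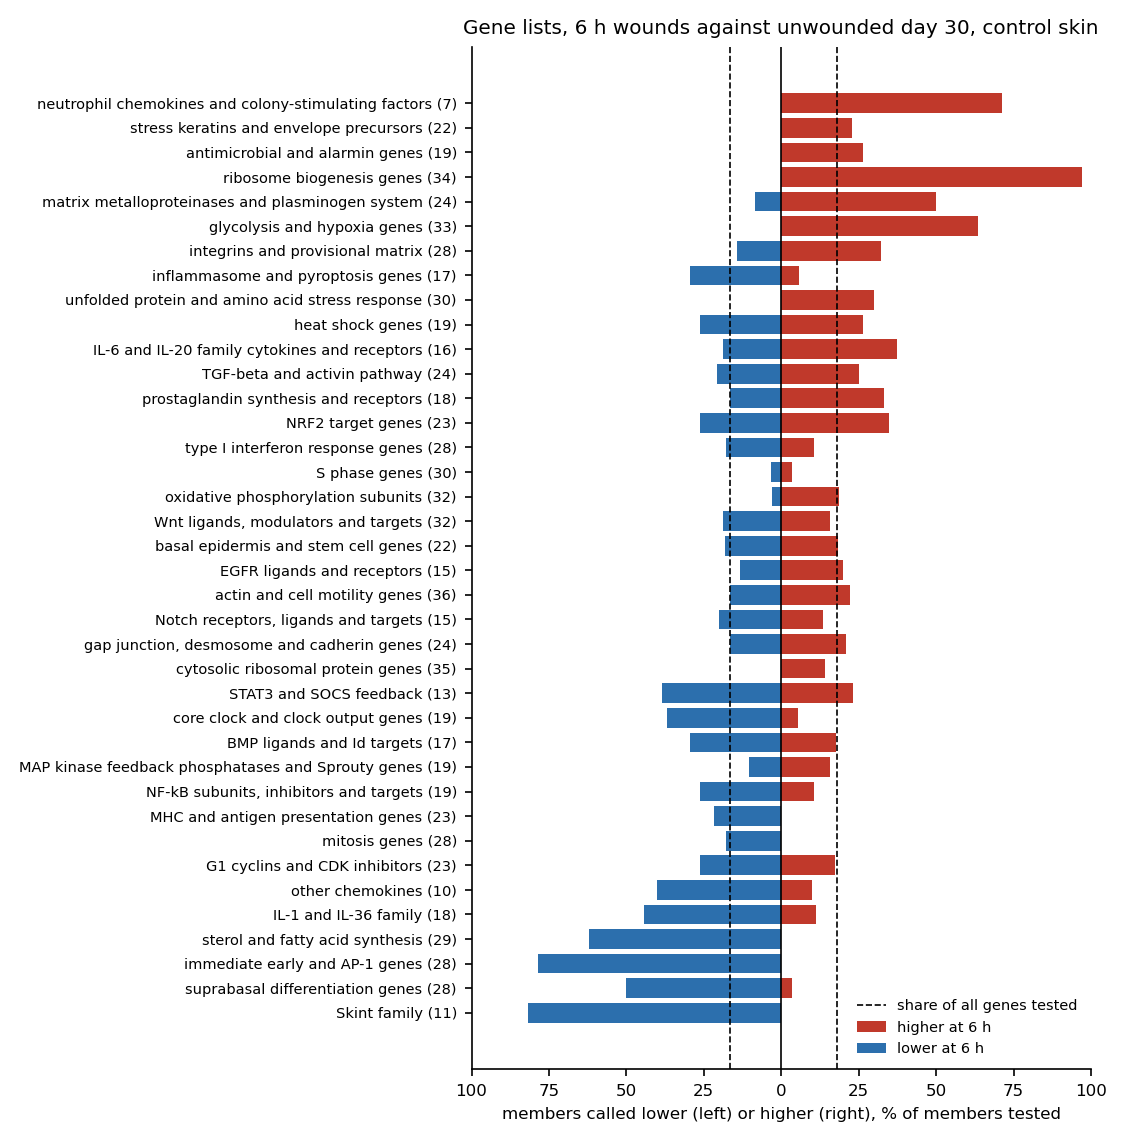
Share of tested members called higher (red, right) or lower (blue, left) at 6 h in each of the 38 pathway lists, with the number tested in brackets and dashed lines at the shares of all genes, 18.0% higher and 16.7% lower; lists are ordered by median log2 change. Ribosome biogenesis reaches furthest to the right and the Skint family and immediate early genes furthest to the left.

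Some markers of other cell types were called at 6 h, mostly at low levels, where 18.0% of all genes were higher and 16.7% lower. Summed levels of the macrophage, endothelial, melanocyte and red cell lists overlapped between the groups. Of 17 macrophage markers 7 were higher and 1 lower, with sums of 347 and 598 CPM at 6 h and 379 and 290 CPM at day 30. Their median log2 change of 3.11 becomes 1.06 with the 7 members that had a group at 0 reads set at their bound. Mrc1, the mannose receptor, had 3.26 and 0.637 CPM at 6 h and 0 reads at day 30, at least 16.9-fold higher. Of 6 mast cell markers 5 were higher and 0 lower, and the list summed to 12.7 and 15.2 CPM at 6 h and 0.189 and 0.413 CPM at day 30. Most of that was Hdc, histidine decarboxylase, at 10.1 and 9.85 CPM at 6 h and 0 and 0.0295 CPM at day 30, while Fcer1a was at 0 in all 4 libraries. Of 16 fibroblast markers 5 were higher and 1 lower, with sums of 533 and 571 CPM at 6 h and 512 and 244 CPM at day 30, most of it Thy1 and Sparc. Dcn, decorin, had 17.4 and 8.02 CPM at 6 h and 0.615 and 0.590 CPM at day 30, a call lost without 6 h library 1 (adjusted p 0.070), day 30 library 1 (0.082) or day 30 library 2 (0.094). Macrophage rises numbered 3 without 6 h library 1 or day 30 library 2 and 4 without day 30 library 1. Mast cell rises numbered 3 without 6 h library 1 and 2 without any other 1. Fibroblast rises numbered 1 without 6 h library 1, 3 without 6 h library 2 and 2 without either day 30 library. Endothelial markers counted 1 higher of 10, T cell markers 1 lower of 4, Langerhans and dendritic markers 2 higher of 10, melanocyte markers 3 higher of 6, and red cell markers 1 higher of 4. The melanocyte rises numbered 0 without day 30 library 2 and 1 without any other 1. The part of such cells in the rises of Mmp12 and Csf3, which are also known from myeloid cells, was not tested.

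**Figure D5:**
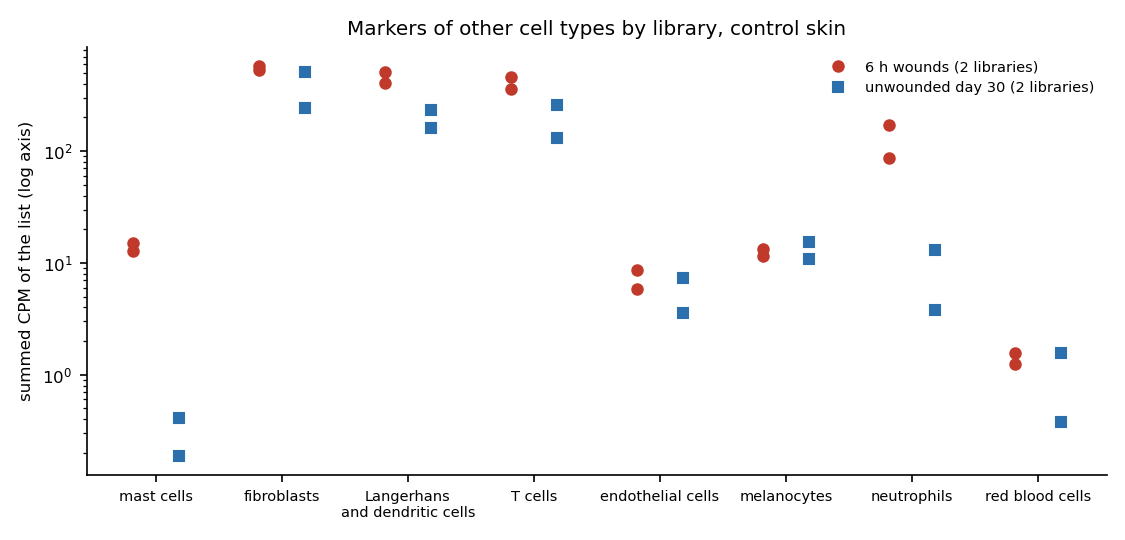
Summed CPM, on a log axis, of marker lists of 8 other cell types in the 2 libraries of 6 h wounds (circles) and the 2 of unwounded day 30 control skin (squares). Thy1 makes up most of the T cell sum, Epcam most of the Langerhans sum and Cxcr2 most of the neutrophil sum at 6 h; mast cell sums lie apart, at 12.7 and 15.2 CPM at 6 h against 0.189 and 0.413 CPM at day 30.

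Between the 12 h and the 6 h wounds of control skin 112 genes passed, 0.647% of those tested. At 12 h 84 were higher (0.486%) and 28 lower (0.162%), and 2381 had an unadjusted p under 0.05. With 1 of the 4 wound libraries left out, 13 to 36 were higher and 0 to 7 lower. Beyond the sterol genes, Tnc, the wound matrix protein tenascin C, averaged 107 ± 13.1 CPM at 12 h (SD, n = 2), with 15.5 and 14.4 CPM at 6 h (log2 change 2.84, edgeR adjusted p 0.0424). Gjb6, another connexin, averaged 50.6 ± 5.41 CPM at 12 h (SD, n = 2), with 4.77 and 7.6 CPM at 6 h (3.05, edgeR adjusted p 0.0172). Nr1d1, a REV-ERB repressor of the clock, averaged 11.9 ± 5.59 CPM at 12 h (SD, n = 2), with 86.6 and 73.2 CPM at 6 h (-2.74, edgeR adjusted p 0.0293). The groups lay apart for all 3, yet these calls were lost whichever of the 4 wound libraries was left out (adjusted p 0.079 to 0.32). Krt6a averaged 3590 CPM and Mmp13 592 CPM at 12 h, with an adjusted p of 0.761 and 0.230 for the difference from 6 h, and for Mmp9, at 73.8 CPM, it was 0.0501.

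The same contrast in mice treated earlier with imiquimod, an agonist of Toll-like receptor 7 that provokes psoriasis-like inflammation, used 4 other libraries. The labels do not pair them with the control libraries, but libraries with the same number and time point deviated together from their group means across genes (r = 0.539 at 6 h, 0.452 at day 30), so the contrasts may not be independent. There 38.7% of genes passed: 3485 were higher at 6 h (20.1%) and 3210 lower (18.6%). The rises shared by both contrasts numbered 2473, which is 71.0% of those after imiquimod and 79.3% of those after control cream. The shared falls numbered 2213, which is 68.9% and 76.7% in the same order, and 7 genes were called in opposite directions. A test of the difference between the wound effects called 0 of 17299 genes (0.0%) with edgeR, with 1057 at an unadjusted p under 0.05, while DESeq2 called 27. The log2 change of Cxcr2 was 7.26 after imiquimod and 7.38 after control cream, that of Irf1 was -3.40 and -3.45, and that of Nop2 was 2.26 and 2.13. That of Serpina3n was 7.76 after imiquimod and 10.56 after control cream, with an adjusted p of the difference of 0.661. Sterol genes counted 2 higher and 4 lower of 29 after imiquimod, with a median of -0.18, against 0 higher and 18 lower with a median of -1.22 after control cream. No sterol gene passed the test of the difference with edgeR.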

How the data were processed

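Per the labels' protocols, RNA of sorted cells was extracted with Trizol and a Zymo kit and sequenced from TruSeq libraries. The submitters' processing notes name STAR and mm10. Versions, annotation and the handling of multi-mapped reads were not given in the sources used here. What the authors deposited per library is a table of raw counts of reads per gene. Of 47729 gene IDs 47224 matched a symbol.

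edgeR 4.0.16 (R 4.3.3; TMM, filterByExpr, robust quasi-likelihood) fitted 8 group means to the 16 libraries. There were 8 residual degrees of freedom and a common biological variation of 23%. P values were adjusted over 17299 genes. An exact test of 2 against 2 libraries cannot go below 0.333, so the spread was pooled over groups. SE follows from the F statistic. Bounds use 3 counts per library and cover counting error only.

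Genes and the 56 lists were chosen with earlier results of these data known. The rule named the 12 largest called changes per direction (groups apart, mean of 2 log2 CPM or more), the 6 largest in CPM, a panel, up to 4 called members per list and genes at 0 in a group. Mmp3, Mmp1b, Thy1, Sparc and the sort and neutrophil markers were named outside it, after their values were seen. Lists have counts and medians and no set test. Alternatives were RLE scaling, no filter, DESeq2 1.42.0, the compared libraries alone, replicate blocks, leave-outs and thinning to 1 depth. ATAC-seq samples were not used, and some items are not reported here.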

Additional observations from a re-analysis of the deposited data

How the results depend on the processing

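Of 213 called genes named by the rule, 116 kept direction and call in every alternative run. The call of 97 was lost in at least 1, most often without 6 h library 2 (76 genes), day 30 library 2 (62) or day 30 library 1 (49). Il1f6 alone reversed: its log2 change lay between -3.81 and 1.54 with 1 library left out, and was positive without day 30 library 2 (edgeR adjusted p 0.391). Calls in 6 h wounds against day 30 control skin came to 3475 (1858 higher, 1617 lower) with the compared libraries alone, where fewer samples estimate the spread. With 1 library left out they came to 3166 to 4867 (1885 to 2606 higher, 1281 to 2475 lower), lowest without 6 h library 2. RLE scaling, no filter, DESeq2, thinning and leaving out both day 30 libraries numbered 1 left these counts within 1.5 times.

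For 12 h against 6 h, the 112 calls became 980 (551 higher, 429 lower) with no filter, 686 (395 and 291) with DESeq2 and 316 (188 and 128) with the compared libraries alone. With 1 library left out they came to 13 to 43 (13 to 36 higher, 0 to 7 lower). For the difference between the wound effects, 0 calls became 255 (132 and 123) with no filter, 27 (14 and 13) with DESeq2 and 1 (1 higher) without both day 30 libraries numbered 1. After imiquimod the 6695 calls came to 3891 to 5391 with 1 library left out (2217 to 2811 higher, 1674 to 2750 lower), lowest without the 6 h post-imiquimod library 2. The cause was not tested.

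Replicate numbers recur in the groups, but nothing in the labels says that they mark shared mice. Control libraries at 6 h and day 30 with the same number did not deviate together (r = -0.038 across genes). Control and post-imiquimod libraries of the same number and time point did, with r of 0.22 at day 6, 0.452 at day 30, 0.539 at 6 h and 0.323 at 12 h. With the replicate number as a block 3190 genes were higher and 2934 lower at 6 h. With a replicate block within each time point, chosen after seeing the data, 4014 were higher and 3943 lower. In that fit 12 h against 6 h gave 1296 calls (756 and 540), and the difference between wound effects gave 3 (3 higher). Between 6 h and 12 h the numbers ran against each other (r = -0.285), and a crossed pairing, also chosen after seeing the data, gave 449 calls (243 and 206).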

Other observations

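Some transcripts of other skin structures differed between the wound libraries. Krt28, a keratin of the inner root sheath of hair follicles, had 0.761 and 9.44 CPM at 6 h and 0 and 0.177 CPM at day 30, and its call was lost without 6 h library 2 (edgeR adjusted p 0.18), day 30 library 1 (0.097) or day 30 library 2 (0.055). Dpt, dermatopontin of fibroblasts, had 1.79 and 0.150 CPM at 6 h and 0 reads at day 30. Its call was lost without 6 h library 1 (edgeR adjusted p 0.15), day 30 library 1 (0.059) or day 30 library 2 (0.089). Hbb-bs, a haemoglobin gene, had 0.643 and 0.862 CPM at 6 h and 0.0946 and 0 CPM at day 30, a call lost without day 30 library 2 (0.057). Malat1, a nuclear long noncoding RNA, had 271 and 258 CPM at 6 h against 854 and 872 CPM at day 30 (log2 change -1.71 ± 0.23).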
